A study of Ictalurus punctatus with 14 samples.

Results

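Expression in whole channel catfish larvae at 8 days post fertilization (dpf) was compared with expression at 7 dpf, a step of 1 day around the start of feeding. The comparison used the 4 libraries of these stages, 2 per stage, of the 14 libraries in the study, and the 2 libraries of 9 dpf were used to set genes that came back toward the 7 dpf level apart from genes that kept the change. All fish were of the Kansas random strain, spawned artificially and hatched in the same facility, and age was the only factor compared. The pools were of 4 whole larvae of unknown sex, the other stages were 2, 5, 6 and 10 dpf, and a powdered starter diet was offered from 7 dpf, so feeding and age cannot be told apart. The libraries were made from ribosomal RNA-depleted total RNA, and the values are read counts on the exons of each gene, given below as CPM, the counts of a gene per 1000000 counts of its library after TMM scaling. CPM is not divided by gene length, so levels are compared between stages and not between genes.

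A catfish larva of this age still carries yolk and begins to take food. The stomach, intestine and liver take on digestion, absorption, plasma protein synthesis and amino acid breakdown, while nerve fibers are wrapped in myelin by glial cells and skeletal muscle grows. In whole larvae, a larger number of cells of a type and more RNA per cell cannot be told apart.

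The 7 dpf libraries held 6110966 and 6751106 counts in total, those of 8 dpf 16097718 and 8562516, and those of 9 dpf 6755272 and 5353331, within a range of 4349807 to 16097718 over the 14 libraries. The lowest level taken as detected, 3 counts of a library, lay between 0.186 and 0.690 CPM, which covers counting error only. Replicate libraries of 7, 8 and 9 dpf correlated at 0.986, 0.985 and 0.962 on the log2 CPM scale across genes. The spread between the replicates relative to counting noise was 1.29 at 7 dpf and 1.22 at 5 dpf, where 1 is expected from counting alone, and it was 13.5, 19.0 and 62.0 at 8, 9 and 10 dpf. The 7 dpf libraries therefore differed by little more than counting noise, and counts of differentially expressed genes (DEGs) are given below both with these libraries as 2 samples and with their sum as 1 sample. The methods describe separate pools for a stage, but do not make clear whether their RNA was combined before library construction. The p-values measure only the spread between libraries. In the main fit this spread and the standard errors were estimated from all 14 libraries. The wide 10 dpf replicates therefore enter them, and they are not the spread of the 7 and 8 dpf libraries alone. A lower share of reads mapped at 5, 7 and 9 dpf than at 6, 8 and 10 dpf, and the part of this difference in the results was not tested.

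Of 20329 genes tested, 455 (2.24%) were DEGs between 8 and 7 dpf, with 233 upregulated (1.15%) and 222 downregulated (1.09%). DEGs were called at a Benjamini-Hochberg adjusted p under 0.05 in the quasi-likelihood test of edgeR together with a log2 fold change of 1 or more in size, and 958 genes (4.71%) passed the adjusted p at any fold. The libraries of both stages did not overlap for any of the 455 DEGs, while 60.1% of all genes tested also showed no overlap. The median log2 fold change over all genes was 0.00. With the 7 dpf libraries counted as 1 sample, 83 of the 455 genes remained DEGs (28 upregulated and 55 downregulated, 33.7% upregulated against 51.2%), and 443 of the 455 kept their direction with a log2 change of 1 or more in size. With the 5 dpf libraries, which lay as close to each other, also counted as 1 sample, 4 DEGs were called. The 443 folds come from the same counts, summed for 7 dpf, so they were nearly fixed in advance and give no separate support. Genes just inside the fold threshold were lsm10 at 1.001, cd2bp2 at -1.002 and prom1b at -1.004, and exosc6 at 0.998 lay just outside.

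For each DEG the kept share was computed as the log2 change from 7 to 9 dpf divided by that from 7 to 8 dpf, so that a share of 1 stands for a change fully present at 9 dpf and a share of 0 for a full return. A total of 267 DEGs (58.7%) kept at least 0.5 of the change and 188 (41.3%) returned below it. Upregulated genes mostly kept the change, with 195 kept (83.7%) and 38 returned (16.3%). Without replicate 1 of 9 dpf 29.7% of the upregulated DEGs returned, and without replicate 2 of 9 dpf 13.0% did. Downregulated genes mostly returned, with 150 returned (67.6%) and 72 kept (32.4%). Without these libraries in turn 68.6% and 56.5% of the downregulated DEGs returned, and 88.7% and 86.2% of the DEGs shared with the full data stayed in their class. The median kept share was 1.03 in the upregulated genes that kept the change, 0.33 in the upregulated genes that returned, 0.74 in the downregulated genes that kept it and 0.21 in the downregulated genes that returned. At 9 dpf, 123 genes (104 upregulated and 19 downregulated) had moved further than at 8 dpf, and 25 genes (5 upregulated and 20 downregulated) had crossed the 7 dpf level. The division is not sharp, since 25 DEGs had a kept share between 0.45 and 0.55.

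**Figure D1:**
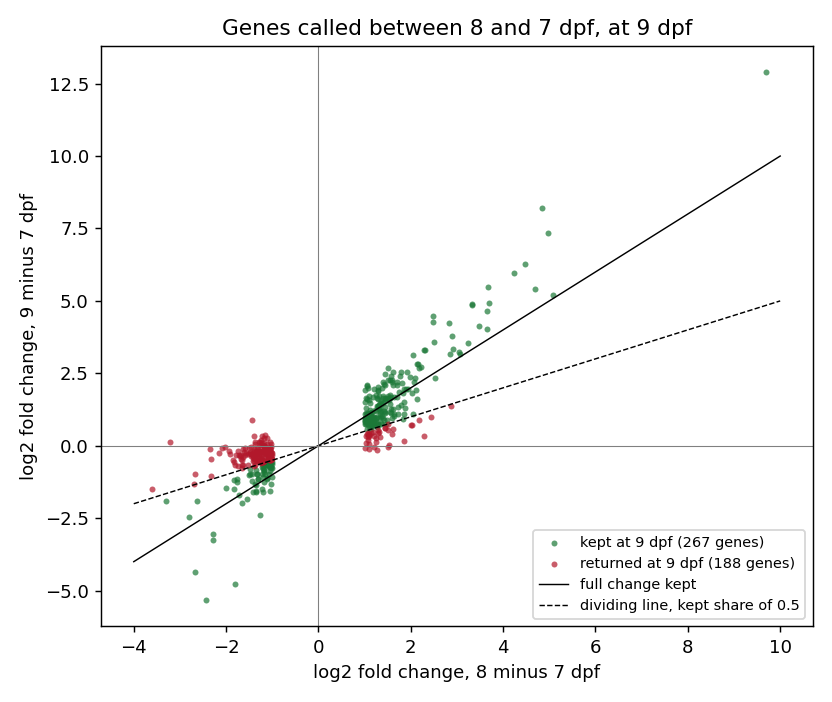
Each point is 1 of the 455 DEGs, with the log2 fold change from 7 to 8 dpf on the x axis and from 7 to 9 dpf on the y axis, the solid line where the full change was kept and the dashed line at a kept share of 0.5. The 267 kept genes (green) extend to the upper right, the 188 returned genes (red) lie mainly at the lower left near 0 on the y axis, and the isolated point at the upper right is LOC108255198, which had no count at 7 dpf.

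The changes from 8 to 9 dpf and from 7 to 9 dpf share libraries with the step itself, so the classes are a description. P-values of these changes given below for single genes, kept or returned, describe the genes and give no separate support for their class. In the same edgeR fit, 86 DEGs (9 upregulated and 77 downregulated) moved back between 8 and 9 dpf with an adjusted p under 0.05, where 1.17% of all genes did so. Another 153 DEGs (132 upregulated and 21 downregulated) still differed from 7 dpf at 9 dpf in the same direction, against 2.08% of all genes. For the other 216 DEGs neither change passed the threshold. With the 7 dpf libraries counted as 1 sample, 51 of the 83 DEGs returned, 26 moved back past the threshold and 23 still differed from 7 dpf past it. The tested return depended on the 8 dpf libraries, as 0 of 316 DEGs passed it in edgeR without replicate 1 of 8 dpf (179 at an unadjusted p under 0.05), and 6 of 97 passed it without replicate 2 of 8 dpf (58 unadjusted).

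Genes of digestion and absorption were among the upregulated genes that kept the change. Of 28 intestinal genes tested, 4 were upregulated and none was downregulated, 26 were higher at 8 dpf, and the median log2 fold change was 0.77 from 7 to 8 dpf and 1.42 from 7 to 9 dpf, against a median of 0.00 over all genes for both. DESeq2 on all 14 libraries called 7 of the 28 as upregulated. fabp2, the intestinal fatty acid binding protein, was at 1.98 and 1.04 CPM at 7 dpf, 12.8 and 15.6 CPM at 8 dpf and 16.4 and 18.6 CPM at 9 dpf. The 8 dpf libraries lay far above those of 7 dpf and next to those of 9 dpf, with a log2 fold change of 3.23 ± 0.75 (approximate SE, n = 2 libraries per stage, edgeR adjusted p = 0.0318). slc15a1a, the intestinal transporter of small peptides, went from 2.97 and 3.27 CPM to 10.4 and 13.5 and then 18.1 and 18.9 (log2 fold change 1.92 ± 0.50, edgeR adjusted p = 0.0490). anpepb.1, an aminopeptidase N of the brush border, was at 15.2 and 17.7 CPM at 7 dpf, 44.6 and 52.8 CPM at 8 dpf and 86.7 and 89.2 CPM at 9 dpf (log2 fold change 1.56 ± 0.35, edgeR adjusted p = 0.0267). In both genes the libraries of 7, 8 and 9 dpf did not overlap, which for 7 and 8 dpf held for every DEG. Each 9 dpf library was the higher, although the change from 8 to 9 dpf did not pass the threshold (edgeR adjusted p = 0.486 and 0.217).

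chia.1, an acidic chitinase, had levels of 12.0 and 13.4 CPM on day 7, 44.4 and 60.7 on day 8 and 112 and 109.8 on day 9. Its log2 fold change was 2.04 ± 0.26 (edgeR adjusted p = 0.00202), and chia.1 was the intestinal gene that stayed a DEG with the 7 dpf libraries counted as 1 sample (adjusted p = 0.0388). The neighboring gene LOC108280999 was also upregulated, with a log2 fold change of 2.47. At 5 dpf chia.1 had been at 0.451 and 0.168 CPM, under the limit of 3 counts in both libraries. At 6 dpf chia.1 was at 0.515 and 1.27 CPM. Its level had thus already risen by 7 dpf, and it was higher again in each library of the following stages.

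Among upregulated genes with a symbol and a mean of at least 10 CPM at 8 dpf, coch, pepa and cldn18 had the largest changes. pepa was at 3.30 and 5.80 CPM at 7 dpf, 51.3 and 65.5 CPM at 8 dpf and 164 and 244 CPM at 9 dpf (log2 fold change 3.66 ± 0.71, edgeR adjusted p = 0.0136). coch, which encodes cochlin, a secreted protein of the inner ear in mammals, was at 14.3 and 14.9 CPM, 199 and 179 CPM and 324 and 570.2 CPM at the same stages (log2 fold change 3.69 ± 0.72, edgeR adjusted p = 0.0147). cldn18, a tight junction claudin of the stomach and lung in mammals, was at 0.989 and 1.04 CPM, 9.60 and 16.5 CPM and 14.7 and 19.5 CPM (log2 fold change 3.65 ± 0.59, edgeR adjusted p = 0.00745). In all of them each library of 8 and 9 dpf was above each library of 7 dpf. For 8 dpf this was a condition for being named here, and it held for every DEG of the step. The 9 dpf values also placed these genes in the kept class. The separation therefore describes them and gives no separate support. The 10 dpf replicates of these genes differed widely, with 365 and 56.6 CPM for pepa, 806 and 89.1 for coch and 21.2 and 7.97 for cldn18, where replicate 1 was the higher library each time. Replicate 2 of 10 dpf lay between or below the 8 dpf libraries in each of them.

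Genes known only by a number had the largest changes among those reaching a mean of 10 CPM at 8 dpf. LOC108255198 had no count in either 7 dpf library, where 3 counts correspond to 0.491 and 0.444 CPM, and was at 8.89 and 16.0 CPM at 8 dpf and 82.9 and 142 CPM at 9 dpf. A fold against a level of 0 is not defined, so none is given (edgeR adjusted p = 0.0240). LOC108273353 was at 1.15 and 1.93 CPM at 7 dpf, 42.3 and 48.1 CPM at 8 dpf and 312 and 613 CPM at 9 dpf (log2 fold change 4.84 ± 0.87, edgeR adjusted p = 0.0117). Both genes were higher in each 9 dpf library than in each 8 dpf library, and the change from 8 to 9 dpf passed the threshold (edgeR adjusted p = 0.0418 and 0.0377). Of the 455 DEGs, 142 have no symbol other than such a number.

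**Figure D2:**
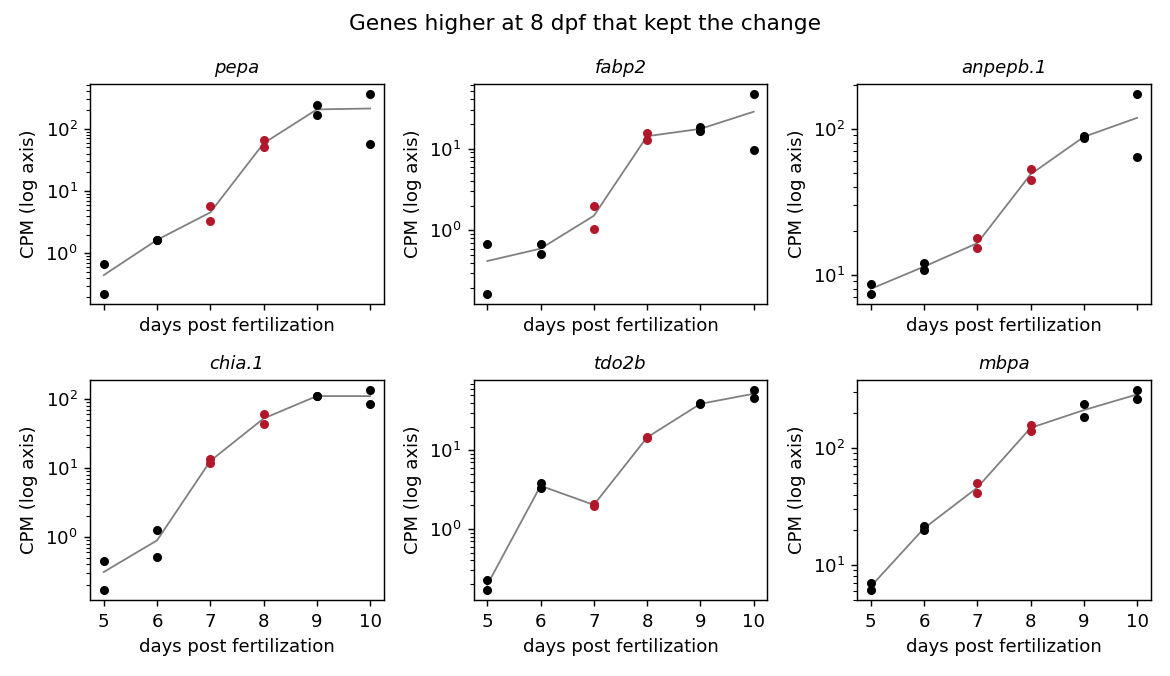
CPM on a log axis in each library from 5 to 10 dpf for pepa, fabp2, anpepb.1, chia.1, tdo2b and mbpa, with 1 point per library, the 7 and 8 dpf libraries in red and a line through the stage means. In all 6 genes both 8 dpf libraries lie above both 7 dpf libraries and the 9 dpf libraries lie above those of 8 dpf, with widely spread 10 dpf replicates for pepa, fabp2 and anpepb.1.

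The liver list held more DEGs than any other list. Of 44 liver genes tested, 10 were upregulated and none was downregulated, 14 passed the adjusted p upward, 39 were higher at 8 dpf, and the median log2 fold change was 0.79 at 8 dpf and 0.85 at 9 dpf relative to 7 dpf. All 10 kept the change, and 9 of the 10 remained DEGs with the 7 dpf libraries counted as 1 sample. tdo2b, the liver enzyme that opens the ring of tryptophan, was at 1.98 and 2.08 CPM at 7 dpf, 14.4 and 14.8 CPM at 8 dpf and 39.3 and 38.2 CPM at 9 dpf. The replicates were close at each stage, the log2 fold change was 2.83 ± 0.21 (edgeR adjusted p = 0.000145), and the further rise to 9 dpf also passed the threshold (log2 fold change 1.41, adjusted p = 0.00303). At 6 dpf tdo2b had been at 3.29 and 3.79 CPM, above both 7 dpf libraries. pah, phenylalanine hydroxylase, was at 10.4 and 10.9 CPM at 7 dpf and 24.4 and 30.4 CPM at 8 dpf (log2 fold change 1.36 ± 0.18, edgeR adjusted p = 0.00222). hpda, a dioxygenase further along the same route of aromatic amino acid breakdown, was at 54.1 and 48.9 CPM and 113 and 156 CPM (log2 fold change 1.39 ± 0.18, edgeR adjusted p = 0.00244). The 7 and 8 dpf libraries of these 3 enzymes of amino acid breakdown did not overlap, as in all 455 DEGs.

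The other upregulated liver genes were of fatty acid transport and the blood plasma. fabp10a, the liver basic fatty acid binding protein, was at 97.6 and 84.3 CPM at 7 dpf, 242 and 293 CPM at 8 dpf and 207 and 283 CPM at 9 dpf (log2 fold change 1.56 ± 0.20, edgeR adjusted p = 0.00202). Its 8 and 9 dpf libraries overlapped each other and lay far above those of 7 dpf. c8a, a chain of the complement membrane attack complex, was at 5.60 and 6.54 CPM at 7 dpf, 13.1 and 19.7 CPM at 8 dpf and 14.5 and 13.5 CPM at 9 dpf (log2 fold change 1.41 ± 0.22, edgeR adjusted p = 0.00512). serpind1, which encodes a thrombin inhibitor of plasma, was at 29.2 and 31.4 CPM, 66.9 and 83.8 CPM and 90.9 and 107 CPM (log2 fold change 1.31 ± 0.17, edgeR adjusted p = 0.00216). Both were higher in every 8 and 9 dpf library than in either 7 dpf library, where the lack of overlap between 7 and 8 dpf held for every DEG. At 5 dpf, however, c8a had been at 15.3 and 13.1 CPM, and at 6 dpf at 14.3 and 12.65 CPM. It was thus lower at 7 dpf than at both earlier stages, and its 9 dpf libraries lay within their range. The remaining 4 were c9, f10, ttr and vtna, a complement chain, a clotting factor, the thyroid hormone carrier transthyretin and a vitronectin, with log2 fold changes of 1.30, 1.25, 1.19 and 1.15. spp2, a secreted phosphoprotein outside the liver list, was at 5.44 and 4.61 CPM at 7 dpf, 36.3 and 38.1 CPM at 8 dpf and 67.0 and 72.2 CPM at 9 dpf (log2 fold change 2.89 ± 0.25, edgeR adjusted p = 0.000352).

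Genes of myelin, the glial sheath around nerve fibers, gave another group of upregulated genes. Of 30 glial and myelin genes tested, 4 were upregulated and none was downregulated, 7 passed the adjusted p upward and 26 were higher at 8 dpf, with a median log2 fold change of 0.37 at 8 dpf and 0.56 at 9 dpf. mbpa, myelin basic protein, was at 50.4 and 41.3 CPM at 7 dpf, 159 and 139 CPM at 8 dpf and 184 and 240 CPM at 9 dpf (log2 fold change 1.70 ± 0.28, edgeR adjusted p = 0.00653). mpz, myelin protein zero, was at 27.2 and 23.8 CPM, 52.0 and 54.3 CPM and 130.1 and 83.1 CPM (log2 fold change 1.06 ± 0.20, edgeR adjusted p = 0.0114), and its kept share was 1.95. Both 9 dpf libraries were above both 8 dpf libraries in each gene. plp1b, a myelin proteolipid protein, was at 4.61 and 4.90 CPM at 7 dpf and 11.7 and 15.4 CPM at 8 dpf (log2 fold change 1.50 ± 0.37, edgeR adjusted p = 0.0395). cldnk, a claudin of myelinating glia in zebrafish, was at 4.61 and 4.90 CPM and 11.6 and 14.2 CPM (log2 fold change 1.43 ± 0.31, edgeR adjusted p = 0.0245). The other 3 genes past the adjusted p were ugt8, mag and cldn19, at log2 fold changes of 0.99, 0.97 and 0.76. None of these 4 myelin DEGs remained a DEG with the 7 dpf libraries counted as 1 sample.

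Of 71 genes of neurons themselves, 1 was upregulated (1.41%, where 2.24% of all genes were DEGs) and 33 were higher at 8 dpf, and their median log2 fold change was -0.05. The upregulated gene was nefla, the light neurofilament chain, at 12.2 and 14.4 CPM at 7 dpf and 37.0 and 50.8 CPM at 8 dpf (log2 fold change 1.71 ± 0.37, edgeR adjusted p = 0.0222). Its 9 dpf libraries were at 40.5 and 15.2 CPM, so that replicate 2 of 9 dpf lay near the 7 dpf level. At 6 dpf nefla had been at 25.1 and 26.7 CPM, above both 7 dpf libraries. Of 28 hormone genes tested, 24 were higher at 8 dpf and the median log2 fold change was 0.56. Of these 28 genes, 1 was upregulated (3.57%, against 2.24% of all genes). That gene was sst1.2, a somatostatin, with 1 and 0 counts at 7 dpf, 39 and 34 counts at 8 dpf and 20 and 22 counts at 9 dpf. Its level at 7 dpf was under the limit of 3 counts in both libraries, so no fold is given (edgeR adjusted p = 0.0308).

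Among blood cell genes, 4 of the erythroid list and 1 of the lymphoid list were upregulated, and none of them remained a DEG with the 7 dpf libraries counted as 1 sample. Of 24 erythroid genes tested, 4 were upregulated and none was downregulated, and 15 were higher at 8 dpf, with a median log2 fold change of 0.29 at 8 dpf and 0.11 at 9 dpf. slc4a1a, the anion exchanger of the red cell membrane, was at 41.7 and 43.4 CPM at 7 dpf, 106 and 104 CPM at 8 dpf and 141 and 117 CPM at 9 dpf (log2 fold change 1.30 ± 0.32, edgeR adjusted p = 0.0386). slc4a1a also belongs to the ionocyte and kidney list. It was the DEG among 47 genes tested there (2.13%, against 2.24% of all genes), and 35 of them were higher at 8 dpf. gata1b, a transcription factor of the erythroid lineage, was at 0.989 and 0.594 CPM, 3.09 and 4.03 CPM and 3.10 and 1.67 CPM (log2 fold change 2.14 ± 0.46, edgeR adjusted p = 0.0222). slc4a1a and gata1b were higher in every 8 and 9 dpf library than at 7 dpf, where the lack of overlap between 7 and 8 dpf held for every DEG. At 6 dpf gata1b was at 6.18 and 4.96 CPM, above its 8 dpf libraries, and slc4a1a at 60.9 and 54.1 CPM, below its 8 dpf libraries. The other upregulated erythroid genes were slc25a37, the mitochondrial iron carrier, and tal1, a blood cell transcription factor. Their log2 fold changes were 1.32 ± 0.29 (edgeR adjusted p = 0.0267) and 1.06 ± 0.23 (edgeR adjusted p = 0.0251). slc25a37 was at 10.1 and 10.5 CPM at 6 dpf, 6.43 and 4.01 CPM at 7 dpf and 12.2 and 13.7 CPM at 8 dpf. tal1 was at 14.2 and 13.1 CPM, 6.59 and 6.54 CPM and 12.8 and 14.6 CPM at these stages. All 4 erythroid DEGs were thus lower in both 7 dpf libraries than in either 6 dpf library. Of 27 lymphoid genes tested, 1 was upregulated (3.70%, against 2.24% of all genes). This was ikzf1, the Ikaros factor, which went from 3.46 and 2.08 CPM at 7 dpf to 6.44 and 6.68 CPM at 8 dpf (log2 fold change 1.25 ± 0.31, edgeR adjusted p = 0.0410).

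The bone and cartilage list and the pigment cell list gave 3 upregulated genes each, none of which remained a DEG with the 7 dpf libraries counted as 1 sample. Of 71 bone and cartilage genes tested, 3 were upregulated (4.23%, against 2.24% of all genes) and 46 were higher at 8 dpf. The median log2 fold change of the list was 0.27 at 8 dpf and 0.22 at 9 dpf. col5a2b, a fibrillar collagen chain, was at 138 and 141 CPM at 7 dpf, 431 and 385 CPM at 8 dpf and 286 and 338 CPM at 9 dpf (log2 fold change 1.55 ± 0.39, edgeR adjusted p = 0.0428). col11a1b, another collagen chain, and elnb, an elastin, had log2 fold changes of 1.34 ± 0.26 (edgeR adjusted p = 0.0154) and 1.37 ± 0.35 (edgeR adjusted p = 0.0461). At 6 dpf col11a1b had been at 384 and 317 CPM, above its 7 dpf libraries at 196 and 190 CPM. The change from 7 to 9 dpf passed the threshold for col11a1b (edgeR adjusted p = 0.0425) but not for col5a2b and elnb (edgeR adjusted p = 0.148 and 0.161). The other 25 genes of the list were lower at 8 dpf, and 6 of them reached a log2 fold change of -1 or below without passing the test. These were otos, snorc, matn1, matn3b, cnmd and acana, the last 5 of which encode proteins of cartilage, with log2 fold changes of -1.86, -1.62, -1.47, -1.40, -1.15 and -1.01 (edgeR adjusted p from 0.108 for matn3b to 0.424 for cnmd), named here after their values were seen. In the other direction, 4 genes of the list reached a log2 fold change of 1 or more without passing the test. These were bgna, dcn, col1a1b and col1a1a, at 1.52, 1.44, 1.14 and 1.08 (edgeR adjusted p from 0.0599 for dcn to 0.152 for col1a1a). DESeq2 on all 14 libraries called 6 upregulated genes in this list. Of 25 pigment cell genes tested, 3 were upregulated and 17 were higher at 8 dpf. gch2, a GTP cyclohydrolase of pteridine pigment synthesis in zebrafish, was at 1.65 and 2.68 CPM at 7 dpf, 6.38 and 9.10 CPM at 8 dpf and 8.32 and 11.5 CPM at 9 dpf (log2 fold change 1.80 ± 0.35, edgeR adjusted p = 0.0150). At 6 dpf gch2 had been at 5.25 and 4.77 CPM, above both 7 dpf libraries. pnp4b, a purine nucleoside phosphorylase, had a log2 fold change of 1.35 ± 0.31 (edgeR adjusted p = 0.0304) and kept it. tyr, the tyrosinase of melanin synthesis, was at 2.97 and 2.97 CPM at 7 dpf, 8.37 and 9.91 CPM at 8 dpf and 6.34 and 2.23 CPM at 9 dpf, and its kept share was 0.36. The 9 dpf libraries of tyr fell on either side of the 7 dpf level. Its change from 8 to 9 dpf did not pass the threshold (edgeR adjusted p = 0.198).

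Among the 38 upregulated genes that returned, otomp showed the largest change. otomp, an otolith matrix protein, was at 3.30 and 1.78 CPM at 7 dpf, 14.4 and 22.7 CPM at 8 dpf and 7.33 and 5.57 CPM at 9 dpf (log2 fold change 2.87 ± 0.41, edgeR adjusted p = 0.00322). Its 9 dpf libraries lay between those of 7 and 8 dpf, with a kept share of 0.48, just under the dividing value, and the change from 8 to 9 dpf did not pass the threshold (log2 fold change -1.50, adjusted p = 0.0687). LOC108262587 was at 2.14 and 2.68 CPM at 7 dpf, 13.7 and 9.91 CPM at 8 dpf and 2.96 and 3.15 CPM at 9 dpf, with a kept share of 0.14. prss35, a serine protease-like gene, was at 8.90 and 7.58 CPM, 31.0 and 35.2 CPM and 14.4 and 12.4 CPM at the same stages (kept share 0.35). In both genes the 9 dpf libraries came back below each 8 dpf library. The change from 8 to 9 dpf did not pass the threshold in either (edgeR adjusted p = 0.1255 and 0.0769). For LOC108262587 the change from 7 to 8 dpf passed it narrowly (edgeR adjusted p = 0.0480).

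The other upregulated genes that returned and were named by the rule had roles in several processes. psmc5, an ATPase subunit of the proteasome cap, was at 14.5 and 16.2 CPM at 7 dpf, 34.4 and 40.5 CPM at 8 dpf and 26.5 and 17.6 CPM at 9 dpf (log2 fold change 1.28 ± 0.21, edgeR adjusted p = 0.00628). It was the only DEG of 33 proteasome genes tested (3.03%, against 2.24% of all genes), of which 14 were higher at 8 dpf. sf3b4, a splicing factor, was at 6.26 and 4.76 CPM, 14.8 and 16.8 CPM and 10.9 and 4.64 CPM (log2 fold change 1.52 ± 0.28, edgeR adjusted p = 0.0116). bdh1, which interconverts ketone bodies, tmem33, a membrane protein of the endoplasmic reticulum, and nrsn1, neurensin of neuronal vesicles, had log2 fold changes of 1.45 ± 0.30, 1.50 ± 0.25 and 1.44 ± 0.26 with kept shares of 0.41, 0.49 and 0.44. For these 3 and for psmc5 and sf3b4 the change from 8 to 9 dpf did not pass the threshold, with edgeR adjusted p between 0.0994 and 0.160.

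Of the 150 downregulated genes that returned, 77 rose again between 8 and 9 dpf with an adjusted p under 0.05. pam16, a subunit of the motor that imports proteins into mitochondria, was at 23.9 and 22.6 CPM at 7 dpf, 5.54 and 5.99 CPM at 8 dpf and 18.6 and 26.9 CPM at 9 dpf. The 8 dpf libraries were low and the 9 dpf libraries lay on either side of the 7 dpf level, with log2 fold changes of -2.01 ± 0.24 from 7 to 8 dpf (edgeR adjusted p = 0.00144) and 1.98 from 8 to 9 dpf (adjusted p = 0.00457). sod1, the cytosolic superoxide dismutase, was at 118 and 119.8 CPM, 30.9 and 31.3 CPM and 90.1 and 118 CPM (log2 fold change -1.93 ± 0.17, edgeR adjusted p = 0.000352). fundc2, a protein of the outer mitochondrial membrane, was at 44.3 and 41.0 CPM, 13.2 and 12.6 CPM and 31.2 and 37.8 CPM (log2 fold change -1.72 ± 0.15, edgeR adjusted p = 0.000352). All of these genes rose again past the threshold between 8 and 9 dpf, with adjusted p = 0.00303 for sod1 and 0.00303 for fundc2. They were chosen for their fall at 8 dpf and placed in this class by their 9 dpf values. The p-values of the rise, here and for the genes of this class below, therefore describe it and give no separate support for a return.

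Genes of RNA handling, polyamine control and protein breakdown were named in this class as well. hnrnpaba, a nuclear ribonucleoprotein that binds messenger RNA, was at 204 and 199 CPM at 7 dpf, 52.3 and 54.4 CPM at 8 dpf and 160.4 and 170.3 CPM at 9 dpf (log2 fold change -1.92 ± 0.19, edgeR adjusted p = 0.000851). oaz1b, an ornithine decarboxylase antizyme that limits polyamine synthesis, was at 206 and 209.5 CPM at the first of these stages, 92.4 and 72.6 CPM at the next and 154 and 202 CPM at the last (log2 fold change -1.33 ± 0.18, edgeR adjusted p = 0.00244). oaz1b is held as a hub gene in the study's coexpression network, where its identifier carries the name of a paralog. Both genes fell at 8 dpf in both libraries and rose past the threshold by 9 dpf, with adjusted p = 0.00377 and 0.0140. fbxo22, an F-box protein that marks targets for breakdown, was at 24.1 and 24.4 CPM at 7 dpf, 7.21 and 7.15 CPM at 8 dpf and 21.7 and 21.2 CPM at 9 dpf (log2 fold change -1.75 ± 0.20, edgeR adjusted p = 0.00144).

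The ribosomal protein genes held DEGs that went against most of the list. rpl13a was at 1267 and 1182 CPM at 7 dpf, 472 and 397 CPM at 8 dpf and 1040 and 1296 CPM at 9 dpf (log2 fold change -1.50 ± 0.18, edgeR adjusted p = 0.00150), and rps12 was at 811 and 738 CPM, 379.8 and 305 CPM and 718 and 836 CPM (log2 fold change -1.18 ± 0.22, edgeR adjusted p = 0.0121). They were the DEGs of 82 ribosomal protein genes tested (2.44%, against 2.24% of all genes), both downregulated. In contrast, 74 of the 82 were higher at 8 dpf, and 8 passed the adjusted p upward at folds under the threshold. The median log2 fold change of the list was 0.44 from 7 to 8 dpf and -0.06 from 7 to 9 dpf. The upward members with an adjusted p under 0.05 had kept shares from -0.21 for rps28 to 0.09 for rps27a, so that they too were back near the 7 dpf level. rpl39, rps29 and rps28 had the largest of these changes, with log2 fold changes of 0.98, 0.98 and 0.97. Copies of ribosomal protein genes can share reads, and how such reads were counted adds uncertainty to single members.

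**Figure D3:**
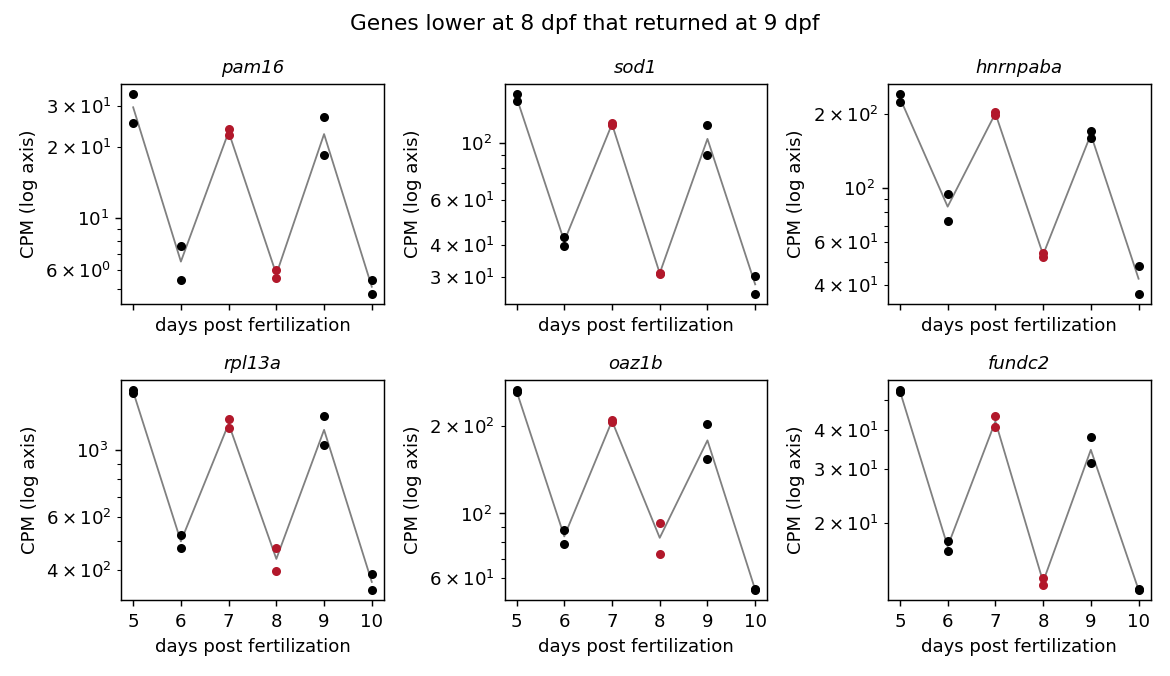
CPM on a log axis in each library from 5 to 10 dpf for pam16, sod1, hnrnpaba, rpl13a, oaz1b and fundc2, with 1 point per library, the 7 and 8 dpf libraries in red and a line through the stage means. Both 8 dpf libraries lie below both 7 dpf and both 9 dpf libraries in each gene, and the libraries of 6 and 10 dpf lie low as those of 8 dpf do.

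Genes of fuel use and muscle were found in both downregulated classes. Of 42 genes of lipid and energy metabolism tested, 2 were downregulated, 1 was upregulated (bdh1) and 17 were higher at 8 dpf, and all 3 returned. ucp3, a mitochondrial uncoupling protein, was at 14.7 and 14.3 CPM at 7 dpf, 5.41 and 4.61 CPM at 8 dpf and 10.0 and 8.16 CPM at 9 dpf (log2 fold change -1.52 ± 0.21, edgeR adjusted p = 0.00283). hadh, a dehydrogenase of fatty acid oxidation, was at 102 and 95.3 CPM, 44.1 and 32.3 CPM and 76.4 and 95.0 CPM (log2 fold change -1.36 ± 0.23, edgeR adjusted p = 0.00714). Both 9 dpf libraries of ucp3 stayed below those of 7 dpf, and replicate 2 of hadh came up to the lower 7 dpf library. The rise from 8 to 9 dpf did not pass the threshold for ucp3 (edgeR adjusted p = 0.0781) but did for hadh (edgeR adjusted p = 0.0328).

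Of 50 fast muscle genes tested, 4 were downregulated and none was upregulated, 12 were higher at 8 dpf, and the median log2 fold change was -0.37 at 8 dpf and -0.27 at 9 dpf. pygma, the muscle glycogen phosphorylase, was at 322 and 327 CPM at 7 dpf, 124 and 109.7 CPM at 8 dpf and 179.6 and 148 CPM at 9 dpf (log2 fold change -1.47 ± 0.17, edgeR adjusted p = 0.00144). Its libraries at 9 dpf remained below those of 7 dpf (log2 fold change -0.98, edgeR adjusted p = 0.0105). The 9 dpf values also placed pygma in the kept class, so this p-value describes the difference and is no separate support. ttn.2, 1 of 2 adjacent genes for titin, the giant spring protein of the sarcomere, was at 32060 and 33660 CPM at 7 dpf, 12750 and 13420 CPM at 8 dpf and 21740 and 11710 CPM at 9 dpf (log2 fold change -1.33 ± 0.33, edgeR adjusted p = 0.0419). ttn.1, its neighbor, showed nearly the same values, with a log2 fold change of -1.32 ± 0.33 (edgeR adjusted p = 0.0428), and reads that fit both copies make the pair uncertain. The 9 dpf replicates of ttn.2 differed widely, with replicate 2 below both 8 dpf libraries. The change from 7 to 9 dpf did not pass the threshold for either titin gene (edgeR adjusted p = 0.155 for both). atp2a1l, a calcium pump of the sarcoplasmic reticulum, was at 5498 and 5453 CPM at 7 dpf, 2395 and 2291 CPM at 8 dpf and 5205 and 4377 CPM at 9 dpf, and returned (kept share 0.16). The rise of atp2a1l from 8 to 9 dpf did not pass the threshold (edgeR adjusted p = 0.077). myoz1b, a Z-disc protein outside the list, was at 104 and 94.5 CPM, 35.6 and 19.6 CPM and 74.4 and 61.6 CPM (log2 fold change -1.84 ± 0.24, edgeR adjusted p = 0.00231). Summed over the fast muscle list, the level was 132800 and 136400 CPM at 7 dpf, 96210 and 69970 CPM at 8 dpf and 108400 and 88140 CPM at 9 dpf, without overlap between 7 dpf and either later stage. For 8 dpf this rests on the pair of titin genes. The other 48 genes of the list summed to 66060 and 66340 CPM at 7 dpf. They summed to 69320 and 42250 CPM at 8 dpf, on either side of the 7 dpf libraries. At 9 dpf they summed to 63220 and 63700 CPM, below both 7 dpf libraries but close to them. Most of the fall of the whole list at 9 dpf therefore also lay in the titin genes. The sum of the whole list is a large share of a library, and its part in the scaled values of other genes was not tested. With the 7 dpf libraries counted as 1 sample, pygma was the fast muscle gene that remained a DEG.

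A smaller number of genes fell at 8 dpf and stayed low. Of the 72 downregulated genes that kept the change, 21 still differed from 7 dpf at 9 dpf past the threshold. For 51 of them neither this difference nor a return passed it. LOC108259527, a high choriolytic enzyme gene of the hatching enzyme family and a hub gene of the study's network, was at 1731 and 1778 CPM at 2 dpf, 198 and 176 CPM at 5 dpf and 81.6 and 92.4 CPM at 6 dpf. It was then at 26.7 and 22.4 CPM at 7 dpf, 5.86 and 8.30 CPM at 8 dpf and 0.987 and 0.742 CPM at 9 dpf (log2 fold change from 7 to 8 dpf -1.81 ± 0.30, edgeR adjusted p = 0.00730). The level was lower at each later stage up to 9 dpf, and the step from 8 to 9 dpf also passed the threshold (log2 fold change -2.97, adjusted p = 0.0118). LOC108259525, the adjacent gene, was at 31.0 and 27.9 CPM at 7 dpf, 4.96 and 5.99 CPM at 8 dpf and 0.564 and 0.928 CPM at 9 dpf (log2 fold change -2.44 ± 0.24, edgeR adjusted p = 0.000851). The gene with identifier 108261691, which has no symbol, was at 8.41 and 12.0 CPM, 1.35 and 1.96 CPM and 0.282 and 0.742 CPM at the same stages (log2 fold change -2.67 ± 0.40, edgeR adjusted p = 0.00407). Kept shares of LOC108259527 and LOC108259525 were 2.64 and 2.18, so they moved further by 9 dpf than the step to 8 dpf. The gene 108261691 had 2 and 4 counts at 9 dpf, with replicate 1 under the limit of 3 counts, so no kept share is given. Its change from 8 to 9 dpf did not pass the threshold (edgeR adjusted p = 0.259).

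The other downregulated genes that kept the change and are named here had several roles. fkbp5, a cochaperone of the glucocorticoid receptor, was at 11.4 and 14.9 CPM at 7 dpf, 6.31 and 4.03 CPM at 8 dpf and 5.50 and 6.49 CPM at 9 dpf (log2 fold change -1.31 ± 0.34, edgeR adjusted p = 0.0464). evplb, an envoplakin that links the outer layers of the epidermis, was at 443 and 469 CPM, 193 and 246 CPM and 308 and 294 CPM (log2 fold change -1.06 ± 0.18, edgeR adjusted p = 0.00789). It was the only DEG of 29 skin and mucus genes tested (3.45%, against 2.24% of all genes), of which 10 were higher at 8 dpf. Each 9 dpf library of fkbp5 and evplb lay below both 7 dpf libraries. atp10b, a lipid flippase, and pheta2, an endosomal protein, had log2 fold changes of -1.35 ± 0.16 (edgeR adjusted p = 0.00150) and -1.43 ± 0.26 (edgeR adjusted p = 0.00951) and kept shares of 0.63 and 0.68. The change from 7 to 9 dpf passed the threshold for atp10b (edgeR adjusted p = 0.0187). It did not for fkbp5, evplb and pheta2 (edgeR adjusted p = 0.123, 0.111 and 0.0832).

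The shares of DEGs in the liver (22.7%), erythroid (16.7%), intestine (14.3%), myelin (13.3%), pigment (12.0%), fast muscle (8.00%) and lipid and energy (7.14%) lists lay above the 2.24% of all genes. Those in the bone and cartilage (4.23%), lymphoid (3.70%), hormone (3.57%), skin (3.45%), proteasome (3.03%), ribosome (2.44%) and ionocyte (2.13%) lists, at 1 to 3 genes each, lay near it. At the share of all genes the bone and cartilage list would hold 1.59 DEGs. Several gene groups gave no DEG at this step in the edgeR fit. These were 56 cell cycle genes, 38 clock genes, 52 early response genes, 41 innate immune genes, 30 interferon genes, 17 lens genes, 30 slow and cardiac muscle genes, 51 genes of oxidative phosphorylation, 51 photoreceptor genes and 28 sterol genes. At the share of all genes, lists of 17 to 56 genes would hold 0.381 to 1.25 DEGs, so a count of 0 in a list is close to the background. Among their 394 genes, 74 had an unadjusted p under 0.05 and 12 of these reached a log2 change of 1 in size. DESeq2 on all 14 libraries called 4 DEGs among them, mpx, msmo1, myl4 and rlbp1b. Over all genes, 952 of 20329 passed the unadjusted p together with the fold, and DESeq2 called 510 of 19018. No count over all genes stands beside the 74. The lens list had a median log2 fold change of 0.52 with 14 of 17 genes higher at 8 dpf, and the cell cycle list had -0.14 with 16 of 56. Single members passed the adjusted p at folds under the threshold, such as dusp1 in the early response list at -0.97, ndufb10 in the oxidative phosphorylation list at -0.97 and stat1b in the interferon list at -0.89. Pancreatic enzymes could not be read, since 6 genes were tested for 38 names in the list. In the 26 lists together, 42 of 1025 genes tested were DEGs, and with the 7 dpf libraries counted as 1 sample 13 were. Genes whose RefSeq symbol is only a LOC number could not be matched to a list.

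**Figure D4:**
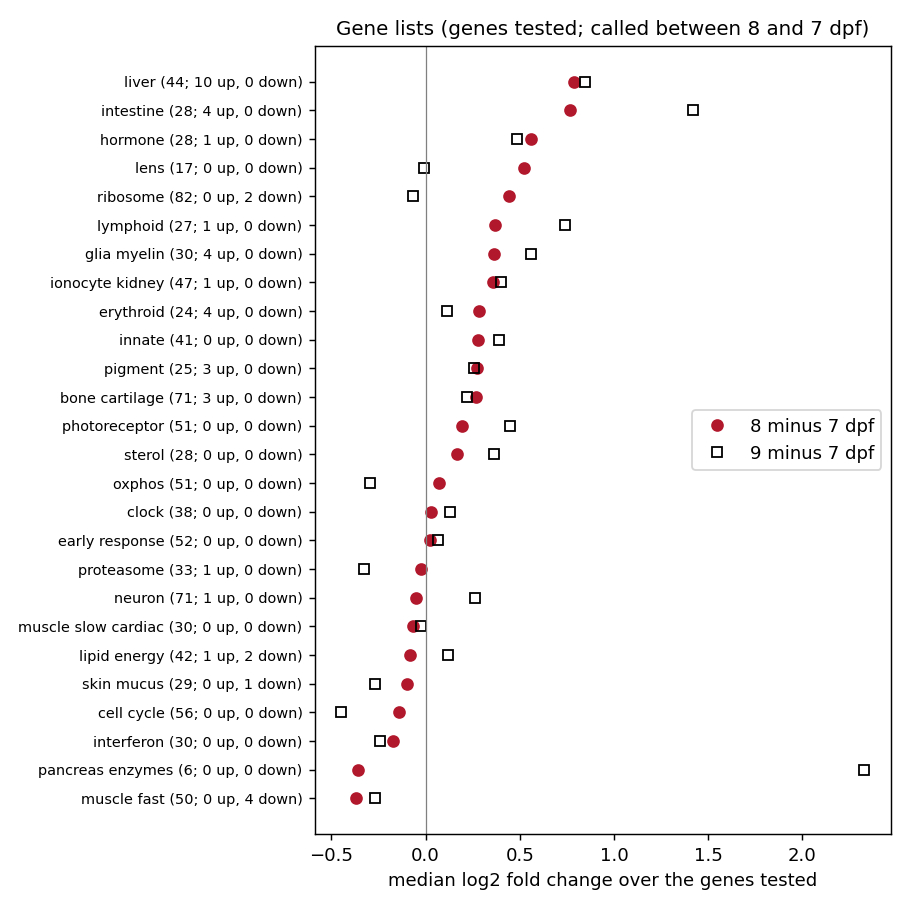
Median log2 fold change of each gene list from 7 to 8 dpf (red circles) and from 7 to 9 dpf (open squares), with the number of genes tested and of DEGs beside each name. The liver and intestine medians lie at 0.79 and 0.77 at 8 dpf and stay at or above this at 9 dpf, the ribosome median goes from 0.44 to -0.06, and the pancreas value rests on 6 genes.

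The steps from 5 to 6 dpf and from 9 to 10 dpf share no library with the step from 7 to 8 dpf. Of the 455 DEGs, 379 (83.3%) moved in the same direction from 5 to 6 dpf, against 61.2% of all genes tested, and 357 (78.5%) from 9 to 10 dpf, against 59.0%. As DEGs in the same direction, 171 (37.6%) were found from 5 to 6 dpf and 76 (16.7%) from 9 to 10 dpf, where 7.95% and 1.13% of all genes were. These are 8.50% of the 2012 DEGs between 6 and 5 dpf and 29.0% of the 262 DEGs between 10 and 9 dpf. In the opposite direction, 15 and 2 of the 455 were DEGs. Of the 56 genes that were DEGs in the same direction at both of these steps, 52 had returned at 9 dpf. The class itself uses the 9 dpf libraries, which the step from 9 to 10 dpf shares, while the step from 5 to 6 dpf is free of this.

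By class, the median log2 fold change from 5 to 6 dpf, signed so that the direction from 7 to 8 dpf is positive, was 1.61 in the 38 upregulated genes that returned, 0.95 in the 195 upregulated genes that kept the change, 0.92 in the 150 downregulated genes that returned and 0.20 in the 72 downregulated genes that kept it. From 9 to 10 dpf the medians were 0.66, 0.28, 0.96 and 0.18 in the same order. These are not compared between classes. A 9 dpf value nearer the 7 dpf level both makes a gene returned and raises its signed change to 10 dpf. The libraries of 6 and 10 dpf were set apart from those of 5 and 9 dpf, without overlap and in the direction of the step, in 113 of the 455 DEGs (24.8%), against 7.29% of all genes. How often this occurred in each class is not compared, since the 9 dpf libraries define the classes. sod1, for example, was at 146 and 156 CPM at 5 dpf, 39.8 and 43.2 CPM at 6 dpf and 30.5 and 25.9 CPM at 10 dpf, so that it was high on the odd days and low on the even days from 5 dpf on. rpl13a was at 1548 and 1584 CPM, 520.1 and 473 CPM and 386 and 342 CPM at these stages and showed the same alternation. tdo2b, which kept its change, was at 0.225 and 0.168 CPM at 5 dpf, 3.29 and 3.79 CPM at 6 dpf and 57.8 and 46.3 CPM at 10 dpf. Its 5 dpf values lay under the limit of 3 counts in both libraries. The even stages are those with the higher mapping rates, and the part of mapping in these changes, returned or kept, was not tested.

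**Figure D5:**
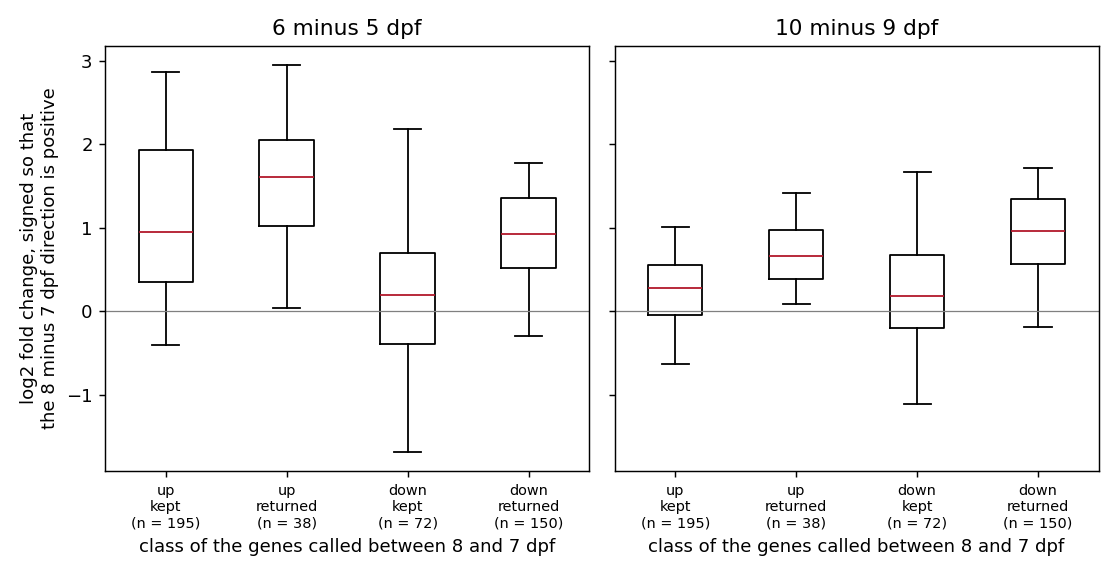
Log2 fold change from 5 to 6 dpf (left) and from 9 to 10 dpf (right) of the DEGs between 8 and 7 dpf, by class, signed so that positive values follow the direction from 7 to 8 dpf; boxes give the median (red) and quartiles and whiskers run from percentile 5 to percentile 95 over genes. The returned classes lie mostly above 0, with medians of 1.61 and 0.92 on the left and 0.66 and 0.96 on the right. The upregulated kept class also lies mostly above 0, with medians of 0.95 and 0.28, and the downregulated kept class lies around 0. The right panel shares the 9 dpf libraries with the classes, so its classes are not compared.

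The same division gave 55.4% of 531 DEGs returned at 8 dpf for the step from 6 to 7 dpf, with 47.0% of the upregulated and 62.7% of the downregulated genes, and 55.3% of 150 DEGs returned at 10 dpf for the step from 8 to 9 dpf, with 62.2% and 29.0%. At the step from 7 to 8 dpf these shares were 16.3% and 67.6%. The steps share libraries, so the shares are set side by side without a test. Gene spans in the annotation, introns included, had a median of 9970 bases in the upregulated genes that kept the change, 6761 in those that returned, 11210 in the downregulated genes that kept it and 8590 in those that returned, against 12243 over all genes tested, with a span known for 435 of the 455 DEGs. A total of 14 pairs of DEGs lay next to each other in the annotation, of which 10 moved in the same direction, against 52.5% of the 18079 adjacent pairs with both genes tested. Among these were LOC108257191 and LOC108256798, upregulated with log2 fold changes of 4.69 and 3.64 and chosen here after their values were seen, besides the chia.1, titin and hatching enzyme pairs.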

How the data were processed

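Raw counts per gene and library were deposited by the authors, who trimmed reads with Trimmomatic 0.36, mapped them with STAR 2.7.0 and counted those on exons with HTSeq-count. The build, annotation and strand setting are not given in the sources used here, and the library kit as named does not mark strand, so genes that overlap on opposite strands and close paralogs are uncertain. The table held 23235 lines, and adding up the 7 lines with 3 repeated identifiers gave 23231 genes. Symbols, spans and gene order were taken from the RefSeq table of the Coco_2.0 assembly (21834 genes matched, 16515 with a symbol other than a LOC number). The members of the comparison and the gene lists were chosen with earlier results of these data known. Lists were matched by symbol, with paralog suffixes.

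All 14 libraries were fitted together in edgeR 4.0.16 (R 4.3.3) with a mean per stage, after filterByExpr with stage as the group and TMM scaling. Contrasts were taken with the quasi-likelihood test, and p-values were Benjamini-Hochberg adjusted over 20329 genes. Standard errors are approximate, taken as |log2 fold change| over the root of F. A return was a kept share under 0.5. The genes named were, in each class and direction, the 6 largest changes with a symbol and the 2 largest of any kind, all with a stage mean of 10 CPM or more and libraries of both stages that did not overlap, up to 6 DEGs per list, and hub genes of the study's network that were DEGs. 1 gene that this rule named is not reported here. Genes named outside this rule are said to be so or stand in a count. The scripts were tested on simulated data. Pools of different stages were different fish, and the deviations of same-numbered libraries of 8 and 7 dpf correlated at -0.00, so replicates were not paired.

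Alternatives were DESeq2 1.42.0, edgeR on fewer libraries, RLE normalization, other filters, equal depth, glmTreat with a log2 threshold of 1, a replicate block, leaving out each library, other kept shares and, chosen after seeing the data, crossed replicate numbers at 9 dpf and the 7 dpf, or the 5 and 7 dpf, libraries counted as 1 sample. Figures were drawn with matplotlib 3.10.9. No sequences were used here.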

Additional observations from a re-analysis of the deposited data

How the results depend on the processing

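The number of DEGs (455) stayed within 1.5 times under DESeq2 on all libraries (510), RLE normalization (460), no filter (449), at least 10 counts in every library (331) and equal depth (417), and rose to 834 with edgeR on the 4 libraries. Replicates shared only a number, and a replicate block gave 369 DEGs, 160 returned, 58 tested returns, 124 tested keeps and 35 DEGs in the lists. Same-numbered libraries of 8 and 9 dpf deviated in opposite directions (correlation -0.27), and with the numbers crossed at 9 dpf the block gave 512 DEGs. DEGs in the lists (42) numbered 69 under DESeq2 and 80 under edgeR when 4 libraries were fitted, and 67 with edgeR on the 6 libraries of 7, 8 and 9 dpf, where 248 tested keeps were found against 153. Over all alternatives, upregulated genes numbered 1 to 12 in the liver list (10 as reported), 0 to 9 in the intestine list (4), 0 to 7 in the bone and cartilage list (3), 0 to 5 in the myelin list (4), 0 to 4 in the erythroid list (4) and 0 to 4 in the pigment list (3), and downregulated genes 0 to 5 in the fast muscle list (4). A minimum of 10 counts gave 74 tested keeps. Tested against a log2 fold change of 1, 6 DEGs remained, with 1 in the lists, 1 returned, 1 tested return and 5 tested keeps. With a kept share under 0.25 as the limit, 99 DEGs returned.

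Counting the 7 dpf libraries as 1 sample gave 83 DEGs, 13 in the lists, 51 returned, 26 tested returns and 23 tested keeps. Counting those of 5 dpf as 1 sample as well gave 4 DEGs, 1 in the lists, 2 returned, 0 tested returns (2 at an unadjusted p under 0.05) and 2 tested keeps, while 443 of the 455 genes kept their fold and direction. Leaving out 1 library, with its stage assumed to vary like the others, gave 73 to 476 DEGs, 10 to 44 in the lists, 44 to 229 returned, 0 to 53 tested returns and 13 to 128 tested keeps. The low numbers came without 7 dpf replicate 1 (73 DEGs), 7 dpf replicate 2 (83) and 8 dpf replicate 2 (97), with 316 without 8 dpf replicate 1, and 380 to 455 of the 455 genes kept their fold and direction. The share of upregulated DEGs was 26.5% to 52.4% there. None of the 63 named genes reversed in any of 1170 values, and 334 of these were no longer past the threshold. The 7 and 8 dpf libraries of these genes did not overlap, as in all 455 DEGs, and the alternatives reuse the same counts. An unchanged direction was therefore nearly fixed in advance, as were the 443 kept folds with summed libraries. Neither gives separate support.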

Other observations

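Further DEGs of the step, named here after their values were seen, belong to groups that the lists touch only in part. hnf4a and cebpa, transcription factors of the liver and gut, were at 4.12 and 2.38 CPM and at 5.93 and 6.24 CPM at 7 dpf, and at 7.60 and 9.45 CPM and at 11.5 and 15.3 CPM at 8 dpf. Their log2 fold changes were 1.39 and 1.12 (edgeR adjusted p = 0.0244 and 0.0231), and both kept the change, with kept shares of 1.07 and 1.09. abcb11b, related to the bile salt export pump, had a log2 fold change of 1.28 (edgeR adjusted p = 0.0104). tmprss15, the gut protease that activates trypsinogen, was at 1.32 and 1.49 CPM at 7 dpf, 6.38 and 7.49 CPM at 8 dpf and 16.1 and 11.9 CPM at 9 dpf, with a log2 fold change of 2.28 (edgeR adjusted p = 0.00714).

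Both genes of the cold-inducible RNA binding protein fell and partly returned. cirbpa was at 807 and 761 CPM at 7 dpf, 273 and 224 CPM at 8 dpf and 396 and 604 CPM at 9 dpf, and cirbpb was at 234 and 236 CPM, 77.0 and 74.9 CPM and 118 and 176 CPM. Their log2 fold changes were -1.66 and -1.63 (edgeR adjusted p = 0.00221 and 0.00144) with kept shares of 0.39 and 0.41, and both remained DEGs with the 7 dpf libraries counted as 1 sample. rack1, a ribosome-associated protein, was at 582 and 554 CPM at 7 dpf, 1403 and 1280 CPM at 8 dpf and 566 and 673 CPM at 9 dpf, with a log2 fold change of 1.24 (edgeR adjusted p = 0.00322) and a kept share of 0.10.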
